A study of Toxocara canis with 2 samples.

Results

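Ion channels and the receptors and peptides of the nervous system were compared between an adult female and an adult male of Toxocara canis, the roundworm of dogs. They were found by name: a unigene, meaning a transcript assembled from the reads, was taken where its best Swiss-Prot match or its KEGG name held the word channel, a named neurotransmitter receptor, GABA, serotonin, dopamine, octopamine, neuropeptide, FMRFamide or G protein-coupled receptor. The rule found 248 members among the 70267 unigenes seen in either library. Of these, 208 were sorted into 4 groups, namely 121 channels, 31 ligand-gated receptors, 48 G protein-coupled receptors and 8 peptides, and 40 matched a word without being any of these. The libraries were made from polyadenylated RNA of the whole body, 1 library from the female and 1 from the male, both adults with the strain label Rongchang. No allele, treatment or age in days is given for either worm.

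Nematode neurons and muscles signal through a small set of protein families. Voltage-gated and leak channels set the excitability of a cell, ligand-gated channels answer acetylcholine, glutamate, GABA and monoamines within a synapse, and G protein-coupled receptors answer monoamines and neuropeptides more slowly. Several of these proteins are targets of the drugs used against roundworms, among them nicotinic receptors for levamisole and pyrantel, glutamate-gated chloride channels for macrocyclic lactones and the potassium channel SLO-1 for emodepside. In both sexes of Caenorhabditis elegans, the nematode from which most of the names below are taken, the same families also serve the muscles of egg laying and of mating, and a few act in sperm.

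Depth was similar, with 19.8 M fragments over 58435 unigenes for the female worm and 18.4 M over 64618 for the male. Levels are given in FPKM, which corrects the fragments on a unigene for its length and for the depth of the library. A count of 3 fragments, the bound used where a library held 0, corresponds on 1 kilobase to 0.152 FPKM in the female and 0.163 FPKM in the male library. A name was deposited only for the 21280 unigenes, 30.3% of all, that the authors had called different between the libraries, so each member had to differ and only its direction and size are informative. Sperm markers (43 unigenes, mainly major sperm protein) summed to 20.9 FPKM in the female and 58020 FPKM in the male library. Ovary and eggshell markers (54 unigenes) summed to 102200 FPKM in the female and 891 FPKM in the male library. Both sums went in the directions that the sex labels call for. By unigene, all 43 sperm markers were higher in the male library. Of the ovary and eggshell markers, 40 were higher in the female and 14 in the male library. Markers of nerve and of muscle were present in both, and single unigenes weighed on their sums. The 20 nerve markers, none of them a member, summed to 114 FPKM in the female and 367 FPKM in the male library. Syntaxin match Unigene40014 had 47.3 FPKM in the female and 0.407 FPKM in the male library. Synaptobrevin-like Unigene27424 had 0.0893 and 151 FPKM. The 13 muscle markers, 7 higher in the female and 6 in the male library, summed to 54.5 FPKM in the female and 98.6 FPKM in the male library. Unigene371, tropomyosin in Swiss-Prot but a viral inclusion protein repeat in the nonredundant database, had 0.854 and 57.5 FPKM of these. Whole worms were sequenced, so fewer cells of a type and less RNA per cell cannot be told apart in any result here, and with 1 library per sex no difference has a replicate check.

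Of the 248 members, 123 (49.6%) were higher in the female and 125 in the male library, against 50.5% higher in the female library among the 8589 described unigenes of the authors' table. A size rule asked for 5 FPKM or more on the higher side and a 4-fold ratio after adding 1 FPKM to both values. By it, 29 members (11.7%) were higher in the female and 16 (6.45%) in the male library. The same rule marked 8.77% and 15.9% of the described unigenes, and 2.38% and 4.5% of all unigenes. With libraries scaled by TMM or by median of ratios, factors fitted to the unigenes as a whole, 22 members passed the rule on the female side and 18 on the male side. The members were low on the whole: 77 of them (31.0%) reached 5 FPKM in either library, against 46.7% of the described unigenes. Clusters CL538 and CL4722, described below, lower this share, as 1 of their 54 contigs reached 5 FPKM. Among the 152 members that averaged 1 FPKM or more over both libraries, the median log2 ratio of female over male was 1.15. It was 0.93 for the described and 0.20 for all unigenes. The interval of the members' median was 0.89 to 1.34. Such an interval, here and below, places the median and does not give the range of members. Single members lay far outside it, Unigene29313 at -7.42 and Unigene42090 at 5.04. The interval treats members as independent, which contigs of 1 cluster may not be. With no added FPKM and a count of 0 set to 3 fragments, the medians were 1.55 for the members and 1.16 for the described unigenes.

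Direction also went with the number in a unigene's name, whose origin is not given in the sources used here. Members numbered 25001 to 30000 were higher in the female library in 0 of 17 cases, those from 30001 to 35000 in 0 of 6, those from 35001 to 40000 in 9 of 9 and those from 40001 to 45000 in 19 of 19. In the authors' deposited table as a whole the shares over the same ranges were 0.215%, 0.497%, 93.6% and 99.2%, and the part of this numbering in the results below was not tested.

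The balance of directions within the 4 groups rested on a few contig clusters. Without CL538 and CL4722, a pair of TRP channel clusters described below, 98 of 154 members were higher in the female and 56 in the male library, and 24 and 8 passed the size rule. With those contigs in, the counts were 98 (47.1%) and 110, and 24 (11.5%) and 9 (4.33%). This alternative was chosen after the values were seen. Contigs that share a cluster name can be isoforms or copies of 1 gene whose reads the counting may have split, so the members stand for 168 clusters or single unigenes, and the level of a single contig is uncertain.

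**Figure D1:**
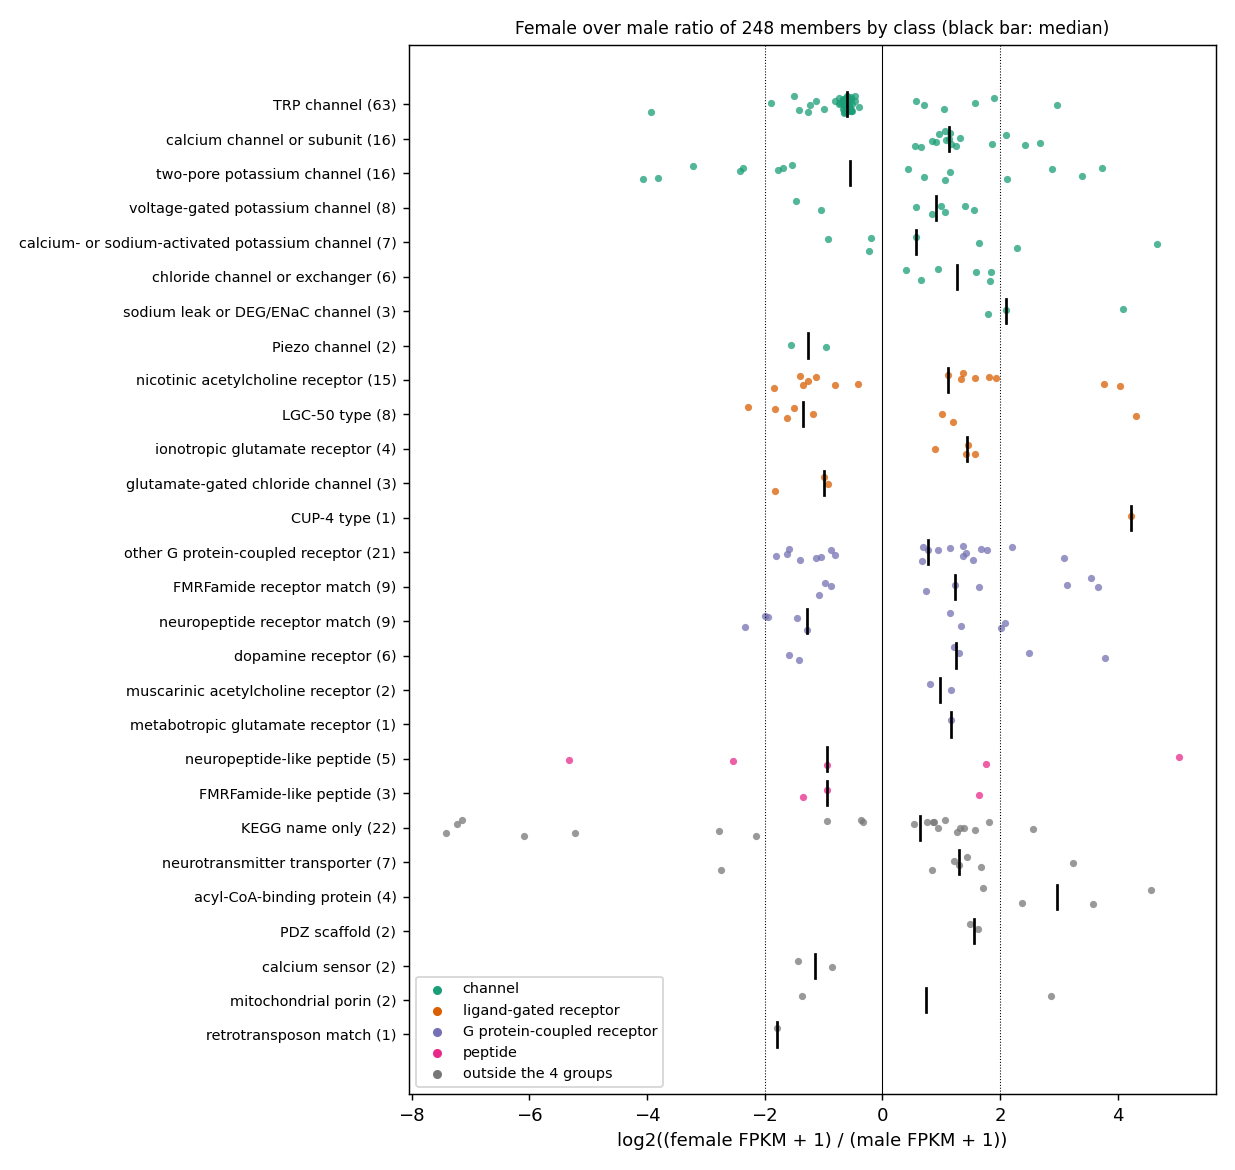
Log2 ratio of female over male FPKM, after adding 1 FPKM to each, for the 248 members (points) by class, with the class size in brackets, the class median as a black bar and the 4-fold lines dotted. All 16 calcium channel members and all 6 chloride channel members lie on the female side, 57 of 63 TRP members lie on the male side, and the two-pore potassium channels reach far on both.

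The largest single class was the TRP channels, cation channels that open to chemical, mechanical or internal signals. Of 63 TRP members, 6 were higher in the female and 57 in the male library. Cluster CL538 supplied 52 of them, contigs of 1971 to 4562 bases. Each of these 52 had 0 fragments in the female library, while in the male library they lay between 0.322 and 2.70 FPKM with a median of 0.523 FPKM. Summed, the contigs held 0 fragments in the female and 2020 in the male library, at least 725-fold lower in the female library. Their best matches were the fly TRP-like protein and the vertebrate short TRP channels, and in the nonredundant database 22 of the 52 had SPE-41 of Caenorhabditis as the best match and the other 30 a hypothetical protein. SPE-41, also called TRP-3, is a TRPC channel that in C. elegans sits in the sperm and is needed for fertilization.

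A second cluster with SPE-41 matches held the most abundant contig. CL4722.Contig2, matched to SPE-41 isoform a, had 0 FPKM in the female and 14.3 FPKM in the male library, at least 223-fold lower in the female. CL4722.Contig1, matched to isoform b, had 0 FPKM in the female and 0.541 FPKM in the male library. Together these 2 contigs carried 0 female and 637 male fragments. Each member of the class with no fragments in the female library belonged to these 2 clusters, and the direction is that of the sperm markers, of which 43 of 43 were higher in the male library and 25 had 0 female fragments. The part of sperm content in this result was not tested.

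**Figure D2:**
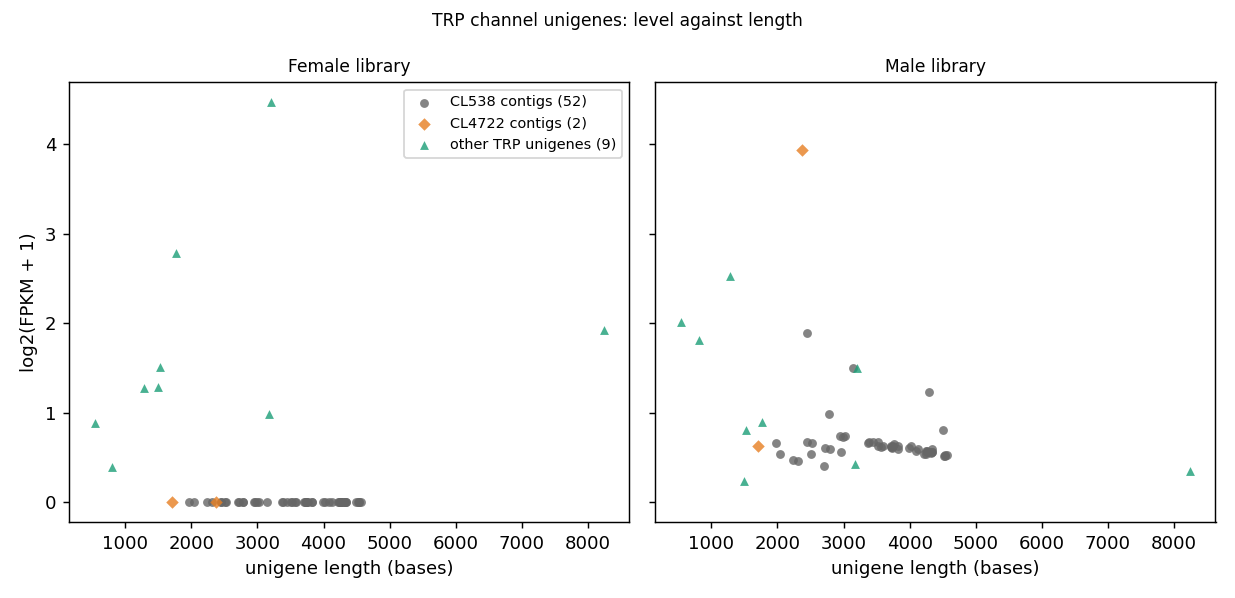
Level of each TRP unigene as log2(FPKM + 1) against its length in bases, with the female library on the left and the male library on the right. The 52 CL538 contigs and the 2 CL4722 contigs lie at 0 in the female library, and 49 of the 52 lie under 1 FPKM in the male library.

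The other 9 TRP members split, with 6 higher in the female and 3 in the male library. Unigene21453, matched to TRP-2, another TRPC channel of nematodes, had 21.1 FPKM in the female and 1.84 FPKM in the male library. It was 11.5-fold higher in the female (95% interval 9.45 to 14.1, counting error only, as for all fold intervals here). It was the one TRP member past the size rule on the female side. Unigene15786 had 5.91 FPKM in the female and 0.865 FPKM in the male library. GON-2, a TRPM channel needed for gonad development in C. elegans, matched CL908.Contig5, which had 2.78 FPKM in the female and 0.278 FPKM in the male library, 10.0-fold higher in the female (7.30 to 14.1). All 14 contigs of the cluster held 641 female and 131 male fragments, 4.54-fold higher in the female (3.76 to 5.52). The 3 on the male side all matched CED-11, also a TRPM-type protein: Unigene138 had 1.41 FPKM in the female and 4.79 FPKM in the male library, and Unigene28071 and Unigene28370 had 0.849 and 0.314 FPKM in the female library, against 3.05 and 2.50 FPKM in the male. The family thus stood on both sides by name, with SPE-41 and CED-11 matches higher in the male and TRP-2 and GON-2 matches higher in the female library.

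Piezo, a large channel opened by stretch of the membrane, was found as cluster CL3970. Its 2 contigs had 0 FPKM in the female library, against 1.94 and 0.950 FPKM in the male library. Summed, they held 0 female and 290 male fragments, at least 104-fold lower in the female library. The cluster has no other contig.

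Calcium channel subunits stood on the female side without exception, 16 of 16. Of these, 15 carry the name of the alpha-2/delta subunit, an accessory protein that brings voltage-gated calcium channels to the cell surface and is called UNC-36 in C. elegans, and 1 matched orai, the pore of store-operated calcium entry. Unigene42062 had 21.7 FPKM in the female and 2.54 FPKM in the male library, 8.56-fold higher in the female (5.25 to 14.8). CL5222.Contig3 had 10.7 FPKM in the female and 1.19 FPKM in the male library, 9.03-fold higher in the female (6.83 to 12.1). Neither of them has a Swiss-Prot match, and their alpha-2/delta name comes from KEGG alone. Unigene14251, whose nonredundant match is TAG-180, had 9.78 FPKM in the female and 1.51 FPKM in the male library, 6.46-fold higher in the female (5.11 to 8.26). These 3 passed the size rule, and the remaining 13 stayed under 5 FPKM. Cluster CL11 gave 8 of them, out of its 19 contigs, between 1.27 and 2.44 FPKM in the female and between 0.175 and 0.549 FPKM in the male library. Summed over those contigs, CL11 had 1214 female and 216 male fragments, 5.22-fold higher in the female (4.51 to 6.06), and all 19 contigs, named or not, held 2802 female and 739 male fragments, 3.52-fold higher in the female (3.24 to 3.82). The orai match CL3918.Contig2 had 2.18 FPKM in the female and 0.460 FPKM in the male library, and both contigs of its cluster held 156 female and 86 male fragments, 1.68-fold higher in the female (1.29 to 2.22). No member was named in Swiss-Prot or KEGG for the alpha-1 subunit, which forms the pore. Unigene12342, a sodium leak channel in Swiss-Prot, is named a voltage-gated calcium channel in the nonredundant database and is described below.

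Among potassium channels the largest log2 ratio with 1 FPKM added belonged to SLO-1, the big-conductance channel that calcium and voltage open together and that damps release at nematode synapses. CL2428.Contig2 had 34.1 FPKM in the female and 0.382 FPKM in the male library, 89.2-fold higher in the female (52.0 to 168). CL2428.Contig1, the other contig of the cluster, had 9.36 FPKM in the female and 1.13 FPKM in the male library. Both contigs named SLO-1 thus pointed the same way, and their sum was higher in the female library by 32.8-fold (24.2 to 45.5). The small-conductance channels, which calcium opens without voltage, divided by name. Both contigs matched to KCNL-3 were higher in the female library, with CL4342.Contig2 at 2.88 FPKM in the female and 0.243 FPKM in the male library, whereas Unigene70, matched to KCNL-4, had 1.76 FPKM in the female and 4.25 FPKM in the male library. Matches of SLO-2, named potassium channel subfamily T in Swiss-Prot, were found in 2 contigs of CL1675, each with 1 female fragment. They had 15 and 14 male fragments, and neither exceeded 0.178 FPKM. All 12 contigs of that cluster held 140 female and 218 male fragments, 1.68-fold higher in the male (1.35 to 2.09).

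Two-pore potassium channels, the leak channels that hold the resting potential, held large differences in both directions. Of 16 members, 8 were higher in the female and 8 in the male library, and 4 (25.0%) and 5 (31.2%) passed the size rule. The most abundant was Unigene6334, matched to SUP-10, a protein that in C. elegans regulates a channel of this type without forming the pore itself. It had 54.9 FPKM in the female and 25.7 FPKM in the male library, 2.13-fold higher in the female (1.93 to 2.37). Unigene1544, matched to UNC-58, had 40.7 FPKM in the female and 2.99 FPKM in the male library, 13.6-fold higher in the female (11.1 to 17.0). Another unigene, Unigene28515, is named UNC-58 in the nonredundant database but TWiK in Swiss-Prot, and had 0 FPKM in the female and 1.89 FPKM in the male library. Unigene12133, matched to TWK-3, had 36.8 FPKM in the female and 4.09 FPKM in the male library. Unigene21501, matched to a vertebrate channel of subfamily K, had 22.4 FPKM in the female and 0.771 FPKM in the male library, 29.1-fold higher in the female (19.7 to 44.8). Unigene15123 completed the female side of the rule with 6.32 FPKM in the female and 0.681 FPKM in the male library.

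The male side of the same class was as far out. Unigene26707, a match of the TWiK family, had 0 FPKM in the female and 15.8 FPKM in the male library, at least 189-fold lower in the female. Unigene6424, also TWiK, had 1.51 FPKM in the female and 34.2 FPKM in the male library, 22.6-fold higher in the male (16.6 to 31.8). Unigene14689 had 0.634 FPKM in the female and 14.2 FPKM in the male library, 22.4-fold higher in the male (12.6 to 44.0). A further pair of matches passed the rule at lower levels: Unigene22517 had 0.415 FPKM in the female and 6.35 FPKM in the male library, and Unigene29361 had 0.191 FPKM in the female and 5.40 FPKM in the male library. Of the 13 members with a TWiK name, 5 were higher in the female and 8 in the male library, so the family name alone did not give the direction. Unigene31582, whose nonredundant match is EGL-23, a channel known in C. elegans from egg-laying mutants, had 0.217 FPKM in the female and 2.94 FPKM in the male library.

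Voltage-gated potassium channels, which end the action potential, differed less. Of 8 members 6 were higher in the female and 2 in the male library, and none passed the size rule. Unigene9782, matched to Shal, a fast inactivating type, had 11.3 FPKM in the female and 3.68 FPKM in the male library, 3.08-fold higher in the female (2.50 to 3.82). Unigene13608, matched to the slow KQT type, had 2.77 FPKM in the female and 9.48 FPKM in the male library, 3.41-fold higher in the male (2.75 to 4.26). Shab-type matches went both ways: Unigene79 had 1.87 FPKM in the female and 4.95 FPKM in the male library. The other 4 of that type were higher in the female. By log2 ratio with 1 FPKM added, Unigene39996 led them, with 3.31 FPKM in the female and 0.466 FPKM in the male library.

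**Figure D3:**
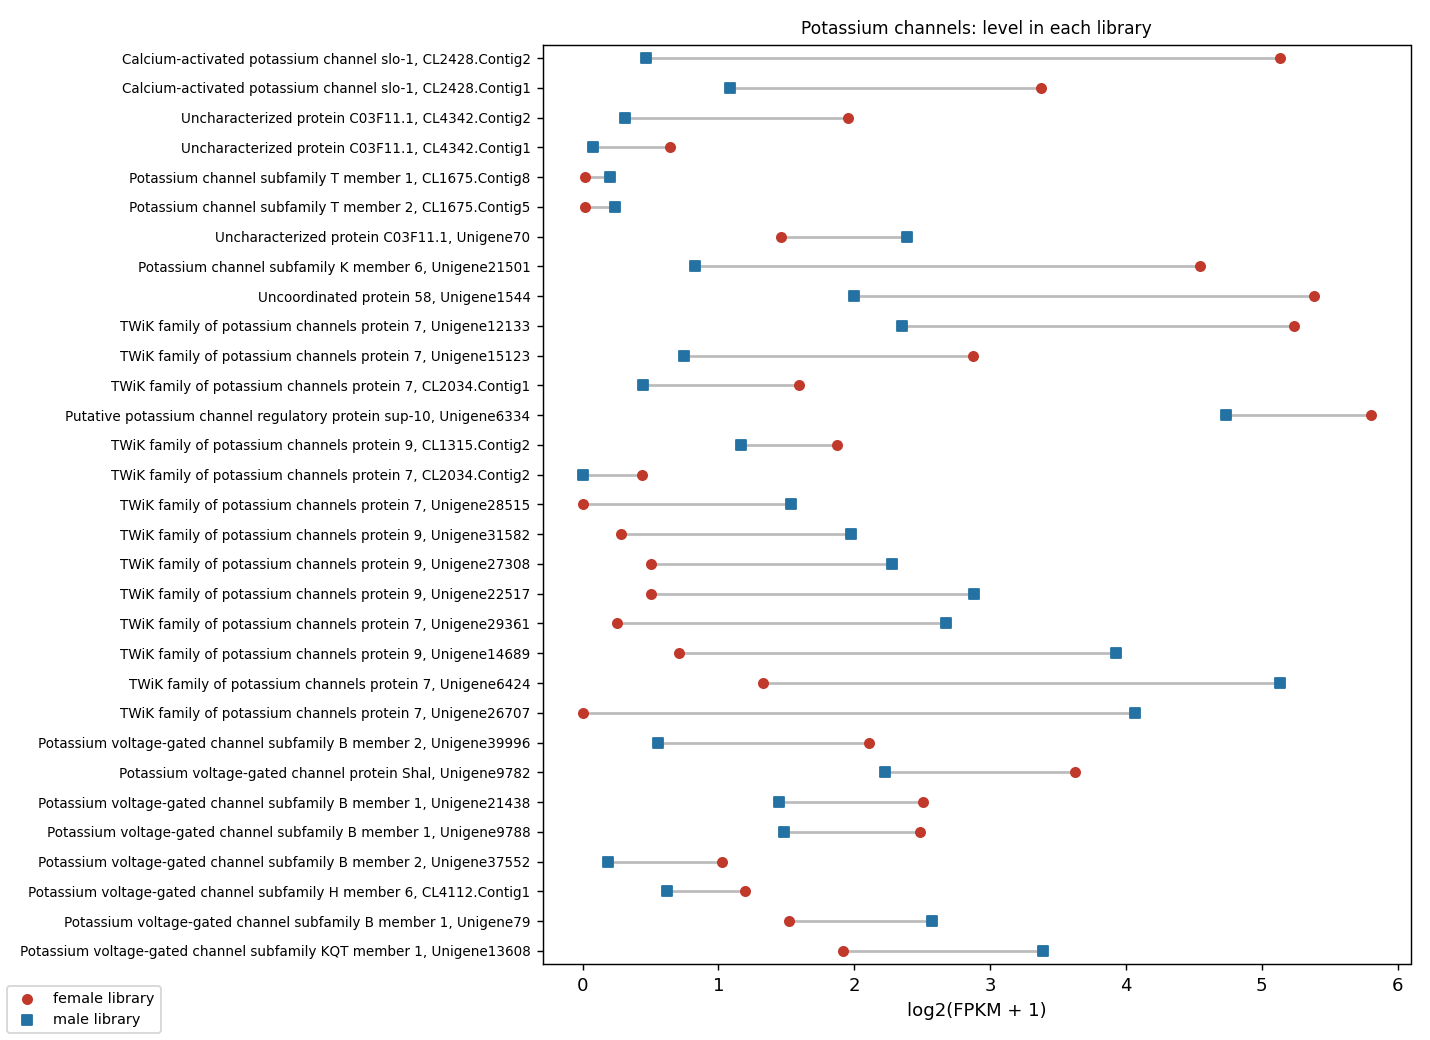
Level of the 31 potassium channel members in the female library (red circles) and the male library (blue squares) as log2(FPKM + 1), grouped as calcium- or sodium-activated, two-pore and voltage-gated, from female-higher to male-higher within each. The SLO-1 contig CL2428.Contig2 and the Swiss-Prot match of UNC-58, Unigene1544, lie far to the female side, and Unigene26707 and Unigene6424 far to the male side.

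Sodium-conducting channels were few and all higher in the female library. Unigene12342, matched to NALCN, the sodium leak channel that keeps neurons near threshold, had 26.9 FPKM in the female and 0.633 FPKM in the male library, 42.5-fold higher in the female (27.0 to 70.9), although its KEGG name is that of a transporter. CL5382.Contig1, matched to an acid-sensing channel of the degenerin family, had 8.38 FPKM in the female and 1.18 FPKM in the male library, 7.08-fold higher in the female (5.32 to 9.59). Unigene39548 matched MEC-4, the touch channel of C. elegans, and had 2.76 FPKM in the female and 0.0803 FPKM in the male library, from 37 female fragments and 1 male fragment (34.3-fold, 5.79 to 1392).

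Chloride channels and exchangers were also all on the female side, 6 of 6, and none passed the size rule. EXL-1, an intracellular chloride channel protein, matched Unigene18219, which had 50.6 FPKM in the female and 16.1 FPKM in the male library, 3.14-fold higher in the female (2.80 to 3.52). A match of the plasma membrane channel CLC-2, Unigene16676, had 12.0 FPKM in the female and 2.62 FPKM in the male library, 4.58-fold higher in the female (3.87 to 5.46). CL2045.Contig1, matched to the proton-coupled exchanger of lysosomes, had 12.1 FPKM in the female and 5.82 FPKM in the male library. The largest folds of the class rested on few fragments: CL2045.Contig2 held 16 female fragments and 1 male fragment, and Unigene5848, another CLC-2 match, 60 female and 7 male fragments, 7.96-fold higher in the female. In the channel group as a whole, without CL538 and CL4722, 49 of 67 members (73.1%) were higher in the female and 18 in the male library. Past the size rule were 12 (17.9%) and 5 (7.46%), beside 8.77% and 15.9% of the described unigenes, and the median log2 ratio was 1.15. With those clusters in, 40.5% of the channels were higher in the female library.

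Ligand-gated receptors were evenly split, 16 (51.6%) higher in the female and 15 in the male library. The size rule was passed by 4 (12.9%) on the female and 1 (3.23%) on the male side, beside 8.77% and 15.9% of the described unigenes. Nicotinic acetylcholine receptor subunits, the proteins through which motor neurons excite muscle, were 15 of the 31. Of these 8 were higher in the female and 7 in the male library, and 2 passed the rule, both on the female side. They were the matches of DEG-3 and DES-2, subunits that in C. elegans come from neighbouring genes and form 1 channel together. The DEG-3 match, Unigene37652, had 17.5 FPKM in the female and 0.129 FPKM in the male library, 135-fold higher in the female (57.8 to 419), from 730 female and 5 male fragments. The DES-2 match, Unigene20445, had 16.2 FPKM in the female and 0.259 FPKM in the male library, 62.4-fold higher in the female (33.7 to 131), from 672 female and 10 male fragments. In the female library their levels were close to each other. Further unigenes with these names were higher in the male library and low: CL2234.Contig1, named after DEG-3 in Swiss-Prot and LGC-31 in the nonredundant database, had 0.0380 FPKM in the female and 0.820 FPKM in the male library (5 and 25 fragments over both contigs of its cluster), and Unigene17752, named after DES-2 and LGC-11, had 0.587 FPKM in the female and 3.21 FPKM in the male library.

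Subunits of the levamisole-type receptor of body wall muscle gave 4 members, 2 of them higher in the female library. Unigene14557, matched to UNC-63, had 10.3 FPKM in the female and 3.47 FPKM in the male library, 2.96-fold higher in the female (2.44 to 3.62). For UNC-38 there were 3 unigenes, which disagreed. CL808.Contig1 had 8.04 FPKM in the female and 1.38 FPKM in the male library, 5.83-fold higher in the female (4.21 to 8.24). CL808.Contig2 had 0.645 FPKM in the female and 2.61 FPKM in the male library, and Unigene8320 had 0.365 FPKM in the female and 2.28 FPKM in the male library, both higher in the male. The sum of both CL808 contigs was higher in the female by 3.53-fold (2.72 to 4.64). Outside this type, Unigene7309, which matched a beta subunit of no given type, had 11.5 FPKM in the female and 3.21 FPKM in the male library, 3.58-fold higher in the female (2.85 to 4.55).

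The remaining nicotinic subunits were under 5 FPKM in both libraries. ACR-21 (Unigene37778, LGC-4 in Swiss-Prot), ACR-11 (Unigene17094) and ACR-2 (CL5973.Contig2) matches had 3.36, 3.53 and 3.02 FPKM in the female library, against 0.248, 0.744 and 0.856 FPKM in the male. The unigenes matched to LGC-4 in both databases and to EAT-2 in Swiss-Prot went the other way. The Swiss-Prot name LGC-4 thus stood on both sides. CL4017.Contig1, matched to LGC-4, had 0.0183 FPKM in the female and 1.60 FPKM in the male library, from 1 female and 81 male fragments (87.3-fold higher in the male, 15.2 to 3489). Unigene31834 is named after EAT-2, a subunit of the feeding muscle in C. elegans, in Swiss-Prot but after ACR-9 in the nonredundant database. It had 0 FPKM in the female and 2.60 FPKM in the male library, from 17 male fragments, at least 6.11-fold lower in the female.

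Among ligand-gated members seen in both libraries the largest fold belonged to a match of CUP-4, a protein related to acetylcholine receptors that in C. elegans acts in endocytosis by the scavenger cells of the body cavity, the coelomocytes. Unigene41041 had 18.7 FPKM in the female and 0.0494 FPKM in the male library, from 818 female and 2 male fragments (380-fold, 105 to 3140).

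Of 8 members named after LGC-50, a serotonin-gated channel of C. elegans, 3 were higher in the female and 5 in the male library, and their nonredundant matches spread over channels for other amines and acetylcholine. Unigene42100, whose match there is a dopamine-gated chloride channel, had 18.8 FPKM in the female and 0 FPKM in the male library, at least 186-fold higher in the female. A second unigene with that match, Unigene33971, had 0 FPKM in the female and 1.85 FPKM in the male library, so the same name stood at opposite ends. The match of MOD-1, a serotonin-gated chloride channel, was Unigene440, with 3.74 FPKM in the female and 1.34 FPKM in the male library. Unigene4944, an LGC-50 match with the KEGG name of a glutamate receptor, held 217 female and 72 male fragments, 2.80-fold higher in the female (2.13 to 3.70). On the male side, Unigene26542 had 0.271 FPKM in the female and 5.20 FPKM in the male library, 19.2-fold higher in the male (8.54 to 53.5), and it was the one ligand-gated member past the size rule there. Unigene14257 had 1.47 FPKM in the female and 6.60 FPKM in the male library, 4.48-fold higher in the male (3.28 to 6.23). Both matches of ACC-3, an acetylcholine-gated chloride channel, were higher in the male library, Unigene8910 with 1.43 FPKM in the female and 4.54 FPKM in the male, and Unigene28400 with 0.239 FPKM in the female and 3.41 FPKM in the male.

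Glutamate receptors divided by Swiss-Prot name. The 3 unigenes that Swiss-Prot names glutamate-gated chloride channels, the inhibitory type found in invertebrates, were higher in the male library. Their KEGG name, an anionic glutamate receptor of invertebrates, is shared by Unigene4944, described above under LGC-50 and higher in the female library. Unigene16105 had 2.13 FPKM in the female and 4.94 FPKM in the male library, 2.32-fold higher in the male (1.61 to 3.38). Unigene9675, matched to GBR-2A, had 1.89 FPKM in the female and 4.74 FPKM in the male library, 2.51-fold higher in the male (1.82 to 3.50). Unigene28093, named as a beta subunit, had 0.245 FPKM in the female and 3.43 FPKM in the male library. All 4 ionotropic glutamate receptors, the excitatory cation channels, were higher in the female library and low. Unigene9611, matched to GLR-6, had 2.61 FPKM in the female and 0.947 FPKM in the male library, and the match of glutamate receptor 1, Unigene40123, had 1.99 FPKM in the female and 0 FPKM in the male library. Both matches of NMR-1, the NMDA-type subunit, had 0 FPKM in the male library, with 1.74 FPKM (Unigene44055) and 1.67 FPKM (Unigene38320) in the female. Each of those 2 rests on 19 female fragments, at least 5.88-fold higher in the female. None of these 7, grouped by Swiss-Prot or, without such a match, by KEGG name, reached 5 FPKM, which Unigene4944 did in the female library.

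**Figure D4:**
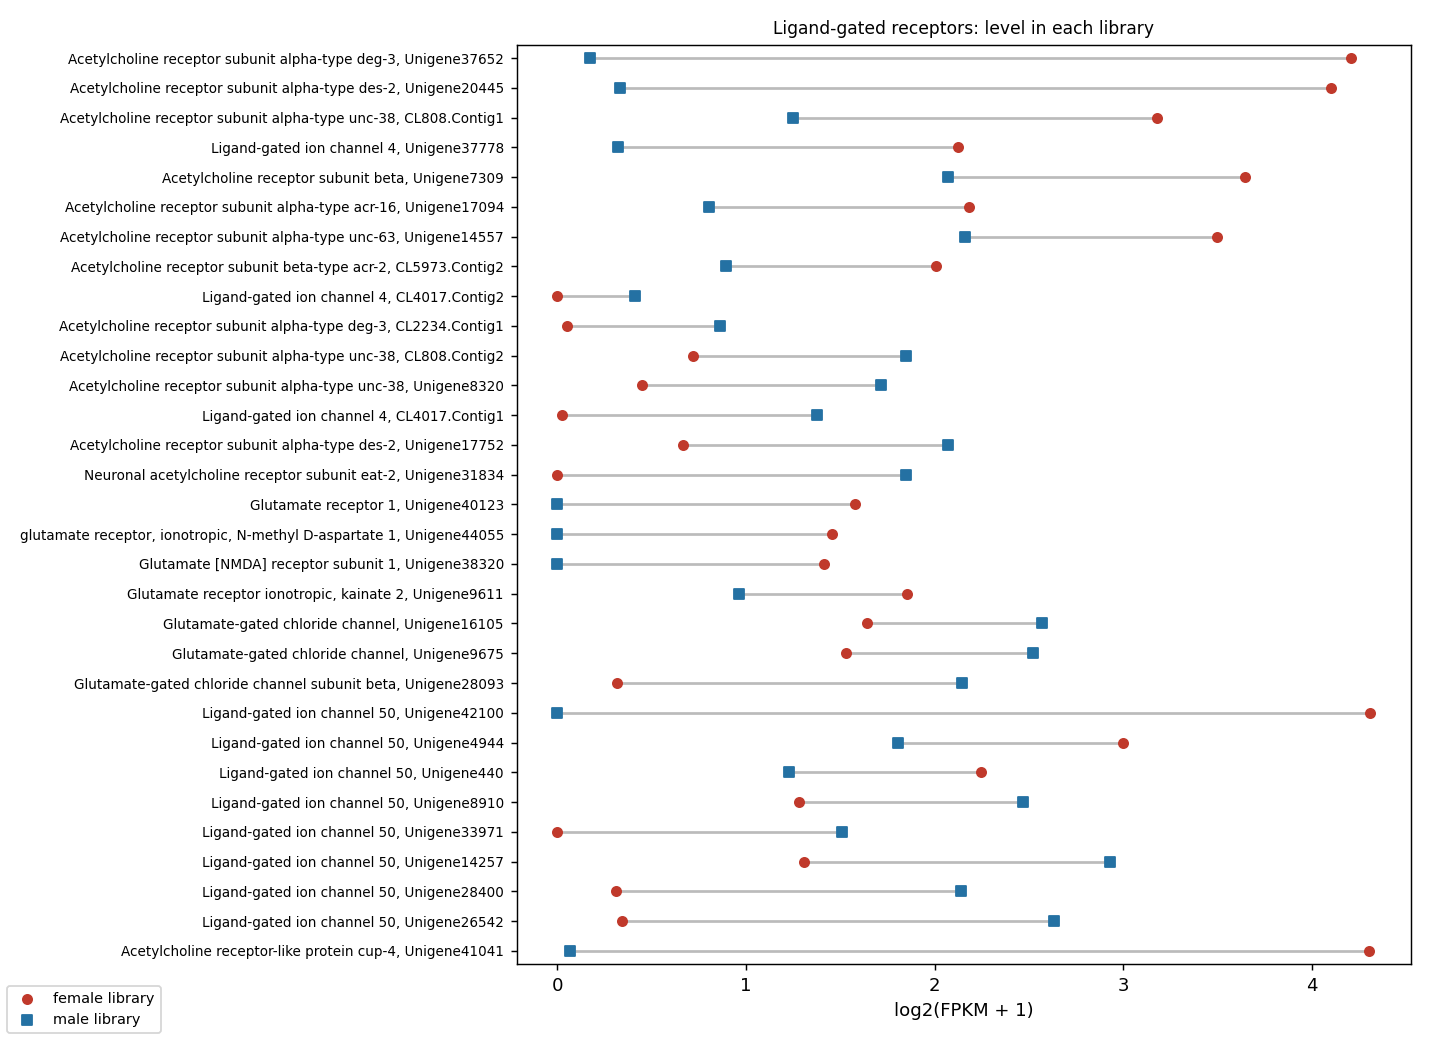
Level of the 31 ligand-gated receptor members in the female library (red circles) and the male library (blue squares) as log2(FPKM + 1), grouped by type. Unigene37652 (DEG-3), Unigene20445 (DES-2), Unigene41041 (CUP-4) and Unigene42100 (dopamine-gated) lie at 16.2 FPKM or above in the female and at 0.259 FPKM or below in the male library. Other unigenes with the DEG-3, DES-2 and dopamine-gated names lie higher in the male library. The 3 unigenes with the Swiss-Prot name of a glutamate-gated chloride channel also lie higher in the male library.

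G protein-coupled receptors were more often higher in the female library, 30 of 48 (62.5%, against 50.5% of the described unigenes). Each of the 7 (14.6%) past the size rule was on the female side. The rule marked 8.77% of the described unigenes on the female and 15.9% on the male side. Of the members that reached 5 FPKM, 12 were higher in the female and 3 in the male library. Among the 36 that averaged 1 FPKM or more the median log2 ratio was 1.22. The interval of this median, from -1.08 to 1.64, spans both directions.

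Monoamine receptors divided by type. The D1-like receptors, which raise cyclic AMP, were all higher in the female library. Unigene41378, which has no Swiss-Prot match and the KEGG name dopamine receptor D5, had 12.8 FPKM in the female and 0 FPKM in the male library, at least 104-fold higher in the female. The match of DOP-4, Unigene42338, had 5.17 FPKM in the female and 0.0972 FPKM in the male library, from 172 female and 3 male fragments (53.2-fold, 17.9 to 261). The DOP-1 matches Unigene43421 and Unigene44188 had 2.19 and 1.71 FPKM in the female library, against 0.381 and 0.102 FPKM in the male. Both D2-like receptors, which lower cyclic AMP, were higher in the male library: Unigene3808, matched to DOP-3, had 0.416 FPKM in the female and 2.77 FPKM in the male library (6.66-fold, 3.50 to 14.0), and Unigene27589 had 0.131 FPKM in the female and 2.40 FPKM in the male library. With 4 and 2 members, and both D2-like unigenes sharing 1 nonredundant match, the split counts few genes. All 4 D1-like unigenes are numbered 40001 to 45000, where 99.2% of the authors' table was higher in the female library. Unigene27589 lies in 25001 to 30000, where 0.215% was. The part of this numbering in the split was not tested.

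Receptors of acetylcholine and glutamate in this group were low. Both contigs of GAR-1, a muscarinic receptor, were higher in the female library, CL481.Contig1 with 1.55 FPKM in the female and 0.143 FPKM in the male, and CL481.Contig2 with 0.745 FPKM in the female and 0 FPKM in the male. Unigene21872, matched to the metabotropic glutamate receptor MGL-1, had 3.43 FPKM in the female and 0.971 FPKM in the male library, 3.53-fold higher in the female (1.97 to 6.71).

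Matches of the insect FMRFamide receptor, a name that covers many nematode peptide receptors, numbered 9, of which 6 were higher in the female and 3 in the male library. Unigene42120 had 12.9 FPKM in the female and 0.0996 FPKM in the male library, from 280 female and 2 male fragments (130-fold, 35.6 to 1078). CL3155.Contig2 had 11.7 FPKM in the female and 0.0903 FPKM in the male library, from 418 female and 3 male fragments (129-fold, 43.9 to 630). Unigene1177 had 13.7 FPKM in the female and 0.663 FPKM in the male library, 20.6-fold higher in the female (12.7 to 35.8). These 3 passed the size rule. Unigene5104, matched to FRPR-9, had 11.0 FPKM in the female and 4.09 FPKM in the male library, 2.69-fold higher in the female (2.03 to 3.60). On the male side, CL3217.Contig1 had 2.09 FPKM in the female and 5.55 FPKM in the male library, 2.65-fold higher in the male.

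The 9 other neuropeptide receptor matches were the one class of G protein-coupled receptor with more members on the male side, 4 higher in the female and 5 in the male library. The most abundant, Unigene10974, is named after the insect capa receptor and had 2.79 FPKM in the female and 14.1 FPKM in the male library, 5.04-fold higher in the male (4.01 to 6.40). Its log2 ratio of -1.99 fell just short of the size rule. The match of NMUR-1, a relative of the neuromedin U receptors, was Unigene7251, with 8.02 FPKM in the female and 1.22 FPKM in the male library, 6.55-fold higher in the female (4.51 to 9.81). Another capa receptor name, Unigene24782, had 0 FPKM in the female and 4.04 FPKM in the male library, at least 21.6-fold lower in the female. NPR-1, a receptor of the neuropeptide Y type that in C. elegans governs feeding in groups, matched Unigene42470, which had 3.48 FPKM in the female and 0.0543 FPKM in the male library, from 69 female fragments and 1 male fragment (64.0-fold, 11.1 to 2565). Neuropeptide F and prolactin-releasing peptide receptor names went both ways: Unigene9459 had 5.37 FPKM in the female and 1.86 FPKM in the male library, whereas Unigene4854, Unigene7305 and Unigene14377 had 1.44, 1.34 and 0.448 FPKM in the female library, against 5.70, 4.68 and 4.61 FPKM in the male.

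The last 21 G protein-coupled receptors have Swiss-Prot names that settle no ligand, although some carry a ligand in their KEGG or nonredundant name, and 13 were higher in the female and 8 in the male library. CL5881.Contig1, matched to receptor 139 of vertebrates, had 7.82 FPKM in the female and 0.0423 FPKM in the male library, from 199 female fragments and 1 male fragment (185-fold, 32.8 to 7331), and was the one past the size rule. CL5773.Contig1, matched to receptor 52 in Swiss-Prot and to a melatonin receptor in the nonredundant database, had 8.21 FPKM in the female and 1.89 FPKM in the male library, 4.34-fold higher in the female (3.30 to 5.77). NPR-18 matched Unigene5251, which had 5.20 FPKM in the female and 1.39 FPKM in the male library. Both matches of SRE, a family of chemoreceptors in C. elegans, were higher in the male library: Unigene27806 had 0.144 FPKM in the female and 2.53 FPKM in the male library. CL3923.Contig1 had 0 FPKM in the female and 2.50 FPKM in the male library, at least 16.9-fold lower in the female.

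Peptide precursors, the source of the ligands for these receptors, were 8, of which 3 were higher in the female and 5 in the male library. NLP-11 gave the largest ratio on the male side among the 4 groups for a unigene seen in both libraries. Its match, Unigene30754, had 0.471 FPKM in the female and 57.8 FPKM in the male library, 123-fold higher in the male (56.1 to 335), and was the highest of all peptide values. The 4 matches of NLP-36 stood on both sides. Unigene42090 had 34.7 FPKM in the female and 0.0873 FPKM in the male library, from 429 female fragments and 1 male fragment (398-fold, 71.1 to 15760). Unigene2245 had 21.5 FPKM in the female and 5.65 FPKM in the male library, 3.81-fold higher in the female (2.78 to 5.29). CL5752.Contig1 had 1.04 FPKM in the female and 10.8 FPKM in the male library, 10.4-fold higher in the male (7.62 to 14.5), and CL5752.Contig2 had 0.124 FPKM in the female and 1.16 FPKM in the male library.

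FMRFamide-like peptides, short amidated peptides that act on muscle and on other neurons, were 3. The FLP-11 match, Unigene608, which the nonredundant database names AFP-6 of Ascaris suum, had 5.17 FPKM in the female and 0.968 FPKM in the male library, 5.34-fold higher in the female (2.49 to 13.1). The FLP-6 match, Unigene21045, had 1.72 FPKM in the female and 5.93 FPKM in the male library, 3.45-fold higher in the male (1.90 to 6.63). CL797.Contig8 had 0 FPKM in the female and 0.923 FPKM in the male library, but its other matches are a glycine-rich antigen and a sugar transporter. Of the 8 peptides, 1 had a Swiss-Prot E value of 1e-20 or below, against 165 of all 248 members, so these names rest on short matches.

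**Figure D5:**
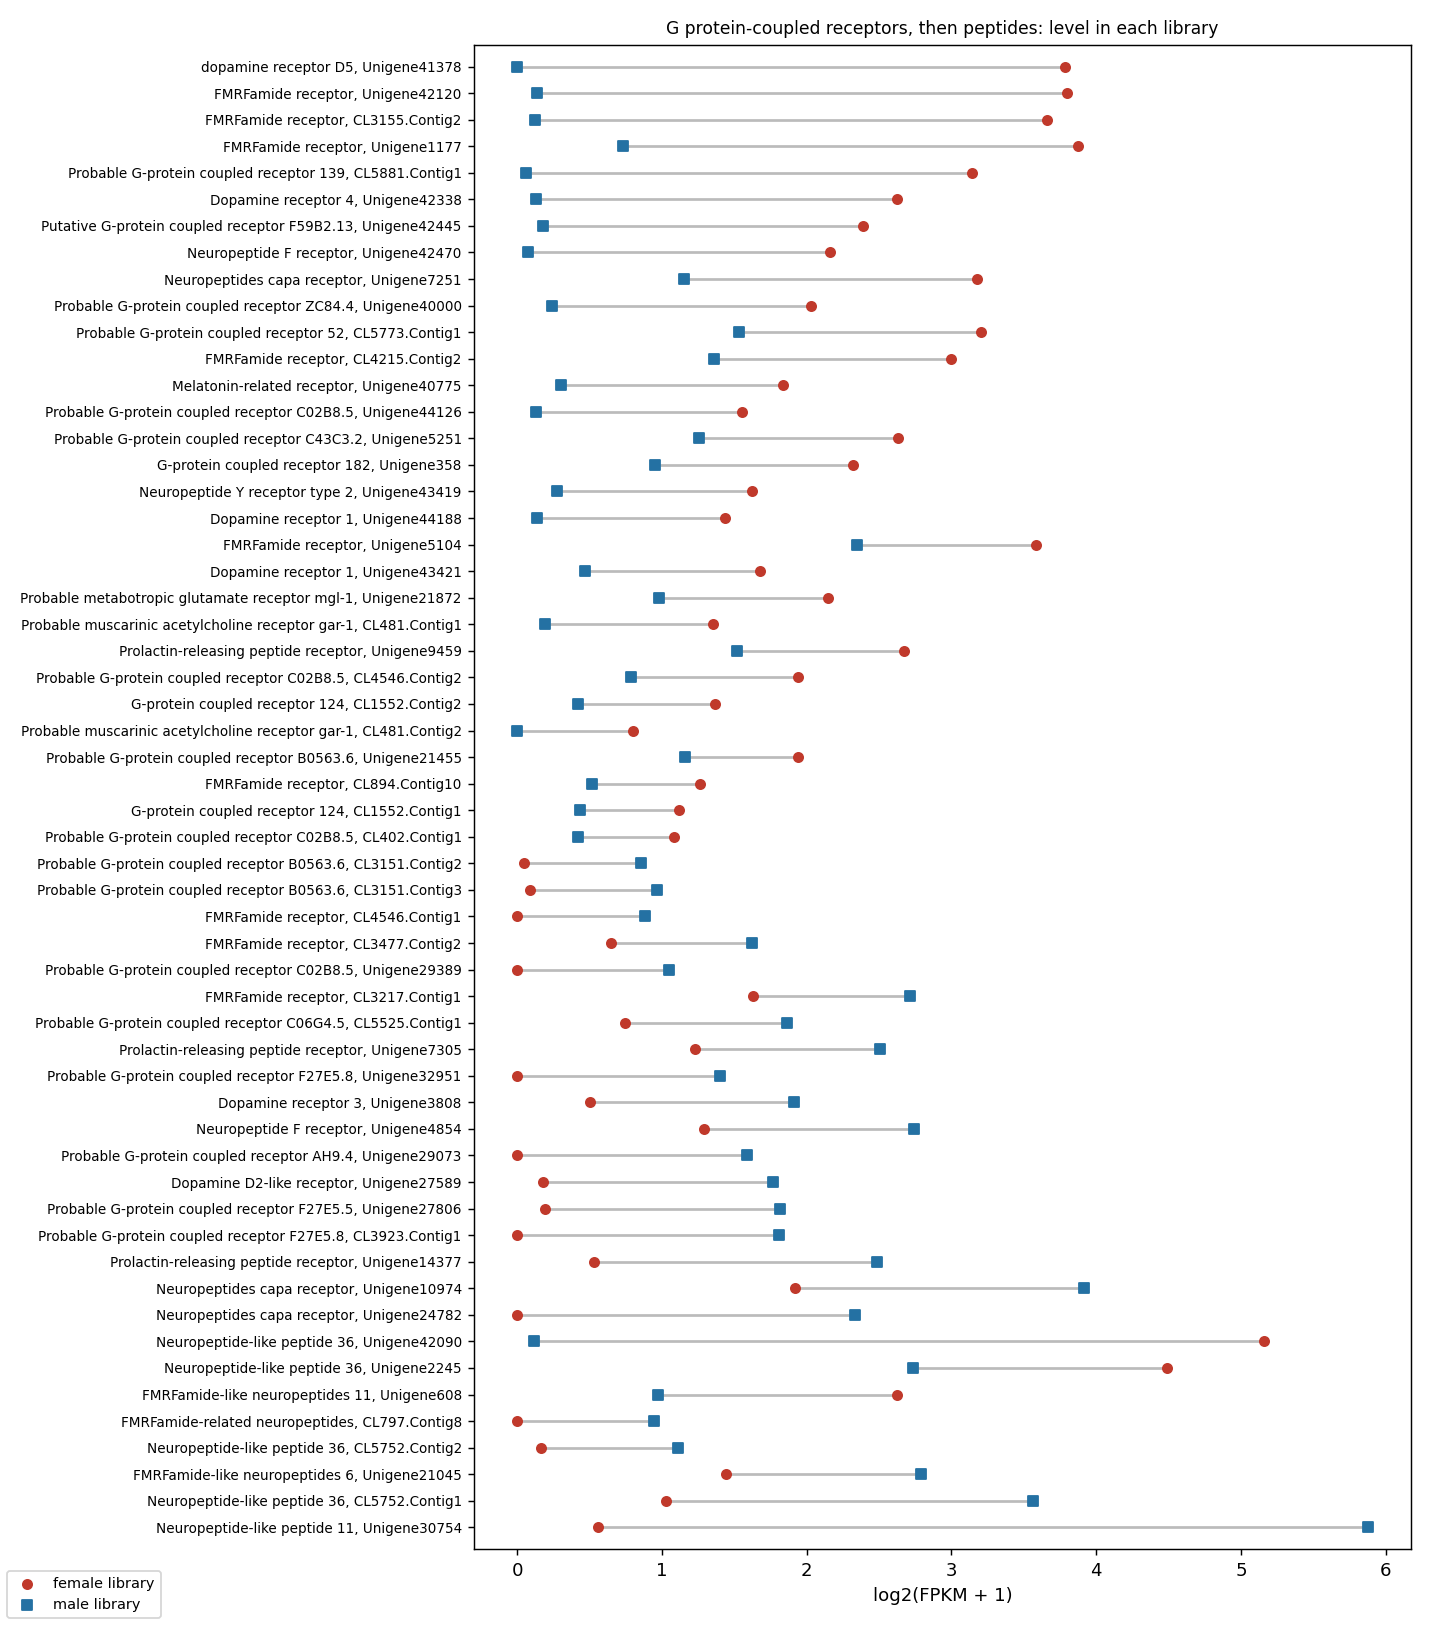
Level of the 48 G protein-coupled receptor members (upper rows) and the 8 peptide members (lower rows) in the female library (red circles) and the male library (blue squares) as log2(FPKM + 1), from female-higher to male-higher within each group. The dopamine receptor D5 name and the FMRFamide receptor matches lead the female side, and NLP-11, at 57.8 FPKM, lies far to the male side.

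The cellular component annotation, which the search did not use, named a membrane for 136 of the 248 members (54.8%), against 12.2% of the described unigenes. It did so for 30 of 31 ligand-gated receptors and 80 of 121 channels, but 16 of 48 G protein-coupled receptors and 0 of 8 peptides. All 54 contigs of CL538 and CL4722 carried it, so these clusters make up much of the channel count. The best nonredundant match came from a nematode for 236 of 248, and for 123 of those it was a hypothetical protein. A hypothetical protein was the best match of 50.8% of all members and of 47.7% of the described unigenes. Of 23 clusters with several member contigs, 20 had them all on the same side and 3 on opposite sides. This count leaves out contigs that are not members, and with all contigs some clusters turned. CL3151, whose member contigs were higher in the male library, held 80 female and 62 male fragments, 1.20-fold higher in the female (0.85 to 1.70). Of the clusters with 1 member contig, CL3477 turned to the female side, with 391 female and 289 male fragments. CL1944 turned to the male side, with 160 and 341.

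The 40 members outside the 4 groups matched a search word for another reason. Of these, 25 were higher in the female and 15 in the male library, 5 and 7 past the size rule. Acyl-CoA-binding proteins, which carry fatty acyl groups and were listed because KEGG names them a GABA receptor modulator, were 4 of 4 higher in the female library. Unigene1865 had 1713 FPKM in the female and 331 FPKM in the male library, 5.17-fold higher in the female (4.96 to 5.40), the highest level of any member. CL5655.Contig1 had 310 FPKM in the female and 25.0 FPKM in the male library, 12.4-fold higher in the female (10.6 to 14.6). The mitochondrial porin, a channel of the outer membrane of mitochondria, had contigs of opposite direction: CL1658.Contig1 had 40.2 FPKM in the female and 4.65 FPKM in the male library, and CL1658.Contig2 had 32.7 FPKM in the female and 86.1 FPKM in the male library.

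Transporters of neurotransmitters belong to synapses too. Unigene41622, matched to the vesicular GABA transporter, which loads GABA into synaptic vesicles, had 13.0 FPKM in the female and 0.477 FPKM in the male library, 27.3-fold higher in the female (16.1 to 50.3). Unigene7166, matched to the GABA transporter of the plasma membrane, had 20.1 FPKM in the female and 6.77 FPKM in the male library, 2.97-fold higher in the female (2.62 to 3.38). CL2294.Contig1, matched to the dopamine transporter, had 0 FPKM in the female and 5.73 FPKM in the male library, at least 24.8-fold lower in the female. Both contigs of the cluster, named or not, together held 103 female and 142 male fragments, 1.49-fold higher in the male (1.15 to 1.93). Of 22 members that owed their place to a KEGG name alone, with another protein in Swiss-Prot, 6 carry a major sperm protein domain description. All 6 were higher in the male library and summed to 0.199 FPKM in the female and 414 FPKM in the male library, and 5 of the 16 male-side calls by the size rule came from them. Cyclic nucleotide-gated channel is the KEGG name of most of these, and no unigene with that name had a channel as its Swiss-Prot match.

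Another 4 lists of genes of the same pathways were read beside the members. Of 46 unigenes for the synthesis, transport and breakdown of transmitters, 16 (34.8%) were higher in the female and 30 in the male library. Past the size rule were 5 (10.9%) and 10 (21.7%), beside 8.77% and 15.9% of the described unigenes. The median log2 ratio was -1.81 (-2.36 to 0.73). Glutamate uptake transporters, which clear the synapse, made up 19 of them, 1 higher in the female and 18 in the male library, with summed levels of 5.96 FPKM in the female and 86.3 FPKM in the male library. Cluster CL1284 supplied 10 of them, all higher in the male library. The match of UNC-17, which fills vesicles with acetylcholine, was Unigene39492, with 20.4 FPKM in the female and 0.0345 FPKM in the male library, where it had 1 fragment (590-fold, 106 to 23350). An aromatic amino acid decarboxylase match, Unigene2477, had 1.18 FPKM in the female and 156 FPKM in the male library, 132-fold higher in the male. The most abundant of the list, Unigene19079, which carries the vesicular inhibitory transporter name in KEGG alone, had 166 FPKM in the female and 8.18 FPKM in the male library.

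Neuropeptide processing gave 13 unigenes, 6 higher in the female and 7 in the male library. On each side 2 (15.4%) passed the size rule, and the median log2 ratio was -0.16 (-1.66 to 1.72). Neprilysins, peptidases that degrade peptides outside cells, were 8 of these, and the most abundant, Unigene493, had 323 FPKM in the female and 1024 FPKM in the male library, 3.18-fold higher in the male (3.12 to 3.24). Another neprilysin, Unigene41162, had 21.7 FPKM in the female and 0.0783 FPKM in the male library, and the carboxypeptidase D match CL4677.Contig2 had 1.09 FPKM in the female and 17.5 FPKM in the male library (69 and 515 fragments over both contigs of its cluster, 8.04-fold higher in the male). Receptor assembly gave 8 unigenes, 4 in each direction, with a median of 0.14 (-3.74 to 3.82). Gephyrin, a scaffold of inhibitory receptors and an enzyme of molybdenum cofactor synthesis, matched Unigene4925, which had 44.8 FPKM in the female and 2.24 FPKM in the male library, 20.0-fold higher in the female (15.8 to 25.7). The discs large name, CL5912.Contig1, had 0 FPKM in the female and 12.4 FPKM in the male library.

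G protein signalling, the pathway behind the G protein-coupled receptors, gave 27 unigenes, 16 higher in the female and 11 in the male library. Past the size rule were 2 (7.41%) and 5 (18.5%), and the median was 0.79 (-1.18 to 1.49). GPA-15, a G protein alpha subunit of nematodes, matched Unigene7224, which had 0.858 FPKM in the female and 41.7 FPKM in the male library, 48.7-fold higher in the male (36.2 to 66.9). All 3 matches of UNC-13, which primes synaptic vesicles, were higher in the male library, with summed levels of 4.36 FPKM in the female and 52.6 FPKM in the male. The outermost female unigene of the list, Unigene39360, had 5.04 FPKM in the female and 0 FPKM in the male library, and its best match is a protein of Trypanosoma. The nerve markers, 3 of which are also in a pathway list, were evenly split, 10 higher in the female and 10 in the male library. Their median log2 ratio was -0.08 beside 1.15 for the members, and 4 and 7 passed the size rule. The part of nerve content in the members' differences was not tested.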

How the data were processed

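Polyadenylated RNA of the entire body of 1 female and 1 male adult worm was extracted with Trizol and made into libraries by random priming, gel selection and PCR, per the labels' protocols. Which assembler, aligner, counter or build was used is not given in the sources used here. The authors deposited, per the file headers, a raw fragment count and an FPKM value per unigene and library. The deposited FPKM equals the count divided by length and library total within 5e-05, and a unigene absent from a library's table was taken as 0 fragments. The authors' deposited table of called unigenes adds a log2 ratio, a p-value and false discovery rate (at most 0.000994) from a test that is not named, and a score of the best Nr and Swiss-Prot hits. A search for the members' Nr accessions in the reference gene table matched 0 of 248, so no coordinate or sequence is given.

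The members, their groups, the pathway lists and the marker lists were chosen with earlier results of these data known. With 1 library per sex no test was run. A ratio is female over male FPKM with 1 FPKM added to each, which understates the change of low unigenes. A fold is the ratio of library shares without that addition, with an exact 95% Clopper-Pearson interval. For a count of 0 the fold is a bound, set against 3 fragments in that library. Fragments amplified by PCR without molecular identifiers are not independent molecules, so intervals and bounds of folds cover counting error only. The rule for named genes took, per class, the 3 members of highest mean FPKM and the 2 outermost in each direction, 99 in all, and per list the most abundant and the outermost in each direction; members named beyond it were chosen after their values were seen. Alternatives changed the scaling (TMM factors from edgeR 4.0.16, and median of ratios), the pseudocount, the minimum level, the size threshold and the choice of members. Per-sample columns left unused numbered 0. The work was done in Python 3.11.15 with pandas 2.3.3, SciPy 1.17.1, matplotlib 3.10.9 and NumPy 2.4.6, and was tested on simulated counts.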

Additional observations from a re-analysis of the deposited data

How the results depend on the processing

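No paired analysis was possible because each sex has 1 library and the labels give no replicate numbers, and for the same reason no library could be left out. Scaling by TMM or by median of ratios moved ratios without an added FPKM by -0.41 and -0.42 on the log2 scale. The median of the members became 0.80 with TMM and 0.79 with median of ratios, beside 0.57 and 0.56 for the described unigenes and -0.21 and -0.22 for all unigenes. Members past the size rule were then 22 in the female and 18 in the male direction under either scaling. Members were deposited only at a log2 ratio of at least 1 in either direction, so a shift of that size could not turn any of them. The median was 1.51 with a pseudocount of 0.1 FPKM and 1.67 over members that averaged 5 FPKM or more. With no minimum level it reversed to -0.20, a setting that by construction adds the low CL538 contigs, of which 1 passes the minimum. A size rule of 2-fold in place of 4-fold counted 51 female-side members. Male-side calls dropped to 9 with Swiss-Prot names only, to 9 within the 4 groups and to 7 with 1 unigene per Swiss-Prot description. Over all results, 43 values stayed on the same side and within the limits used, 8 moved and 1 reversed. The 43 include the direction counts per group under both scalings, which could not change for the reason given above. Of the members, 76 had 0 female and 8 had 0 male fragments, and their folds are bounds. Contigs of CL538 and CL4722 were 54 of the 76. Depth limits the low members, but not all of the 76 were low. Unigene29313 had 0 FPKM in the female and 171 FPKM in the male library, from 2293 fragments.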

Other observations

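Clusters whose member contigs stood on opposite sides were 3. The mitochondrial porin cluster CL1658 had 2000 female and 2409 male fragments in sum, higher in the male library by 1.30-fold (1.22 to 1.38). The UNC-38 cluster CL808 held 278 female and 73 male fragments. The receptor cluster CL4546 held 92 female and 38 male fragments, 2.25-fold higher in the female library (1.52 to 3.37), with CL4546.Contig2 at 2.83 FPKM in the female and 0.729 FPKM in the male library and CL4546.Contig1 at 0 FPKM in the female and 0.844 FPKM in the male library.

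Calcium sensors and scaffolds that match the search words also differed. Both Kv channel-interacting proteins, calcium-binding partners of Shal-type channels, were higher in the male library, Unigene21866 with 2.17 FPKM in the female and 4.72 FPKM in the male library, and Unigene28168 with 0.499 FPKM in the female and 3.06 FPKM in the male library. Both glutamate receptor-interacting proteins, scaffolds with PDZ domains, were higher in the female library, Unigene21552 with 5.99 FPKM in the female and 1.25 FPKM in the male library, and Unigene41431 with 1.97 FPKM in the female and 0.0560 FPKM in the male library, where it had 1 fragment. In the table as a whole, 119 unigenes had their best Nr hit in Trypanosoma, 109 of them higher in the female library, and 3 had it in the dog; no member had a hit in either.

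Of 34 intestine markers 30 were higher in the female library, with summed levels of 324.2 FPKM in the female and 89.8 FPKM in the male library. Unigene15740, a cathepsin match, had 140.5 and 57.0 FPKM of these sums, and 6 of the 34 reached 5 FPKM. The list was matched by words such as cathepsin and aminopeptidase. It also holds a methionine aminopeptidase match, so not every entry is particular to the intestine.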
